A study of Mus musculus with 24 samples.

Results

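The genes described here are those of the cytosolic ribosomal proteins, the protein components of the ribosomes that translate nuclear mRNAs. They were taken as the protein-coding genes of the deposited count table whose GENCODE M21 symbol begins with Rpl or Rps followed by a digit, together with Rplp0, Rplp1, Rplp2 and Rpsa. The Rps6k kinases, Rps19bp1 and symbols carrying -ps were left out. This gave 85 of the 39056 genes in the table, 52 of the large (60S) and 33 of the small (40S) subunit. A filter on low counts left 84 of the 85 for testing, among 18789 genes tested in all. The member below the filter was Rpl10l, a paralog of Rpl10, with 20 reads over all libraries.

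The libraries came from T cells of female NZBWF1/j mice, a strain that develops a lupus-like disease. Mice aged 23 weeks at the start received recombinant mouse OX40L, a ligand of the costimulatory receptor OX40, and recombinant mouse JAG1, a Notch ligand. Each was given by intraperitoneal injection at 2 mg per kg body weight once a week, 3 times, and age- and sex-matched controls received PBS. Cells were sorted in week 26 by surface markers. Conventional T cells (Tconv) were CD4+CXCR5-GITR-, regulatory T cells (Treg) were CD4+CXCR5-GITR+, follicular helper T cells (TFH) were CD4+CXCR5+PD1Hi GITR-/low, and follicular regulatory T cells (TFR) were CD4+CXCR5+PD1Hi GITRHi. Each of the 4 subsets was represented by 3 treated and 3 control libraries, 24 in all. The labels do not say whether the 3 libraries of a group came from separate mice or pools, so the p-values below measure the spread between these libraries, which may be technical. No label names a batch, and any handling difference between the treated and the control mice cannot be told apart from the treatment. Within the sorted populations, fewer cells of a type and less RNA per cell cannot be told apart either.

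Ribosomal proteins are made in near-equal numbers and assembled with ribosomal RNA in the nucleolus into the large subunit, which forms peptide bonds, and the small subunit, which reads the mRNA. Many of their mRNAs begin with a run of pyrimidines headed by a cytosine, the 5′ terminal oligopyrimidine tract, through which the mTORC1 pathway controls how strongly they are translated. A T cell that leaves rest enlarges its translation machinery before it divides. RNA levels, as measured here, do not show translation.

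Those start sites are shown for some of the genes named in the results, called or not, because the tract is the sequence feature for which this family is known. The windows hold 30 bases of the sense strand, the 10 bases before and the 20 bases from the annotated RefSeq start (GRCm38.p6), with any run of at least 6 pyrimidines that begins with C in capitals. Of the members, 65 had a RefSeq promoter entry that could be used. Windows with a tract were those of Rps6 (chr4:86857348-86857377, minus strand), Rpl15 (chr14:18270967-18270996, minus strand), Rpl35 (chr2:39005112-39005141, minus strand), Rpl38 (chr11:114668570-114668599, plus strand), Rplp2 (chr7:141447641-141447670, plus strand), and the near-identical pair Rps27 (chr3:90213629-90213658, minus strand) and Rps27rt (chr9:114982720-114982749, minus strand).
Rps6: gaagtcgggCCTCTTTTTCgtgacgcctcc
Rpl15: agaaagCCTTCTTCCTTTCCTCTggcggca
Rpl35: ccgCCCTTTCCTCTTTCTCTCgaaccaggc
Rpl38: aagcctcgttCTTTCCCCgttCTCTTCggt
Rplp2: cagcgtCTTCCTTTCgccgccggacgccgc
Rps27: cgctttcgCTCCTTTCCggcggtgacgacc
Rps27rt: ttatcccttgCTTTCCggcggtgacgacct

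No such run lay in the window of Rplp0 (chr5:115559457-115559486, plus strand), Rpl37 (chr15:5116603-5116632, plus strand) or Rpsa (chr9:120127756-120127785, plus strand), whose annotated starts may lie off the first base of the main transcript. These 3 are shown for contrast, since their values are described below.
Rplp0: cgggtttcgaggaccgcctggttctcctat
Rpl37: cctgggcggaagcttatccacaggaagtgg
Rpsa: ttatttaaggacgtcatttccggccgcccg

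A C at the annotated start followed by 4 pyrimidines was present in 14 of the 65 members (21.5%), against 3.01% of 27025 genes with an entry. A run of at least 6 pyrimidines beginning with C, on the sense strand alone and anywhere in the window, was present in 37 members (56.9%), against 24.9% of all genes. The letters are a description of these windows, and the absence of a run says only that it is not in this window. In TFR cells the median log2 fold change of treated against control was 0.72 in members with a run and 0.75 in those without, in Tconv cells 0.59 and 0.57, in TFH cells 0.23 and 0.27, and in Treg cells 0.13 and 0.006. The gap was widest in Treg cells, and none of these gaps was tested.

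Library totals ranged from 2537901 to 53788643 counts, with the lowest in control TFH and control TFR cells (2537901 to 15234765). Mean Foxp3 was 354 to 561 CPM in Treg and TFR cells and 5.8 to 50.8 CPM in Tconv and TFH cells, and the T cell genes Cd3e, Cd3g, Cd3d, Trac and Cd4 were present in every group. Other regulatory markers were less distinct than Foxp3. Mean Ikzf2 was 379 and 384 CPM in control and treated TFH cells and 640 CPM in control Treg cells. Mean Tnfrsf18 was 138 CPM in treated Treg, 82.5 CPM in control TFH and 71.0 CPM in control Tconv cells. Within 1 treatment it was further apart, with 32.1 CPM in treated Tconv, 48.5 CPM in treated TFH and 192 CPM in control TFR cells. Mean Il2ra was 66.8 to 216 CPM in Treg and TFR cells and 8.44 to 37.9 CPM in Tconv and TFH cells. Foxp3, Ikzf2, Il2ra and Tnfrsf18 together reached 459.5 to 586.7 CPM in TFH, 96.1 to 113.7 CPM in Tconv, and 1410 to 2138 CPM in Treg and TFR libraries. The follicular markers Cxcr5, Pdcd1, Bcl6 and Il21 separated the subsets less clearly. Their sum was 55.2 to 67.4 CPM in Tconv and 572 to 695 CPM in TFH libraries. Across treatments, control Treg (303 to 354 CPM) and treated TFR libraries (328 to 378 CPM) overlapped. Within 1 treatment Treg and TFR libraries did not overlap, with 523 to 637 CPM in control TFR and 141 to 164 CPM in treated Treg. Pdcd1, which encodes the sort marker PD1, had a mean of 222 CPM in control Treg cells, above 146 CPM in treated TFH and 142 CPM in treated TFR cells. Bcl6 had 79.2 CPM in control Treg and 54.8 CPM in treated TFR cells. Within 1 treatment mean Pdcd1 was higher in TFR than in Treg cells, with 369 CPM in control TFR and 72.0 CPM in treated Treg. Mean Cxcr5 was 16.3 CPM in control Treg and 53.7 CPM in control TFR, and 40.9 CPM in treated Treg and 136 CPM in treated TFR cells. Control TFH libraries also held B cell transcripts: the 5 B cell markers together reached 40.6 to 79.8 CPM there and 1.6 to 21.1 CPM in all other libraries, and none of the 5 had a group mean of 0 in control TFH. Kidney transcripts stood out in 5 libraries. Control Tconv libraries 1 and 2 had sums of 1242 and 1208 CPM over 8 podocyte markers, treated TFH library 3 had 1466 CPM, treated TFR library 1 had 563 CPM and treated Treg library 3 had 156 CPM, while the other libraries had at most 67.1 CPM. The 10 proximal tubule markers followed, with 655, 662, 727, 307 and 85.5 CPM in those libraries. Mitochondrially encoded genes took 1.85% to 3.17% of the counts in treated and 9.50% to 16.9% in control libraries, and 11 or 12 of 14 heat shock genes were higher in the treated cells of each subset. The part of the mitochondrial and heat shock shifts in the results on ribosomal protein genes was not tested beyond the alternatives named below.

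Reads of this family are hard to place. In the main coding transcripts of the 85 members, a median of 61.2% of all 50-base stretches also occurred in the transcripts of another annotated gene, and in 51 members the share was above 50%. How reads with several matches were counted is not given in the sources used here. Rps27 and Rps27rt stood at 98.6% and 91.1%, and each shared most with the other, so the split of their counts is uncertain. Rpl35, Rpl5 and Rpl10 stood at 95.1%, 93.8% and 92.1%, so their levels below are uncertain as well. The 281 rows named as pseudogenes of members held 3.04 to 3.73 counts per 100 member counts. Among the 81 members with a mean of at least 10 CPM, the 41 with less and the 40 with more shared sequence had like medians: in treated against control TFR cells 0.77 and 0.72, and in Tconv cells 0.58 and 0.53, on the log2 scale. Exons of 16 members overlap another gene, in 13 of them an antisense one, and whether counting used the strand is not given in the sources used here.

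As a share of all counts, the ribosomal protein genes were highest in Tconv and lowest in TFH cells, and the share was higher in treated than in control libraries of Tconv, TFR and TFH cells. In Tconv cells the 85 genes took 8.89%, 8.42% and 8.43% of the counts in the treated libraries 1, 2 and 3, and 6.31%, 6.19% and 7.07% in the controls. In TFR cells they took 5.07%, 4.96% and 5.26% in treated and 2.93%, 3.23% and 3.22% in control libraries. The treated values lay above all control values in both subsets. Control Tconv libraries 1 and 2, the lowest of that subset, held kidney transcripts, as did treated TFR library 1, and the group means of the shares were not taken without them. In Treg cells the shares were 4.61%, 4.80% and 4.39% in treated and 4.33%, 4.44% and 3.74% in control libraries, and the groups overlapped. In TFH cells they were 3.49%, 2.83% and 2.94% in treated and 2.69%, 2.80% and 2.72% in control libraries, which did not overlap, although treated library 2 and control library 2 were close.

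The order of the group means was treated Tconv (8.58% ± 0.268, SD, n = 3), control Tconv (6.52% ± 0.478), treated TFR (5.10% ± 0.151), treated Treg (4.60% ± 0.203), control Treg (4.17% ± 0.374), control TFR (3.13% ± 0.169), treated TFH (3.09% ± 0.353) and control TFH (2.74% ± 0.0575). Of neighbours in that order, treated and control Treg, and control TFR and treated TFH, overlapped. The 95% Wilson interval of a single library's share was at most 0.0203 percentage points to each side, which covers counting error only. Because mitochondrial genes took more of the control counts, the shares were also taken over the other genes. They became 8.80% against 7.28% in Tconv, 5.23% against 3.50% in TFR, 4.69% against 4.68% in Treg and 3.17% against 3.26% in TFH cells, treated before control. In TFH cells the order of the group means thus turned. On this scale control Tconv library 3, not among the 5 libraries with kidney transcripts, was at 7.98%, and treated Tconv libraries were at 8.64% to 9.10%. No test was applied to the shares.

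**Figure D1:**
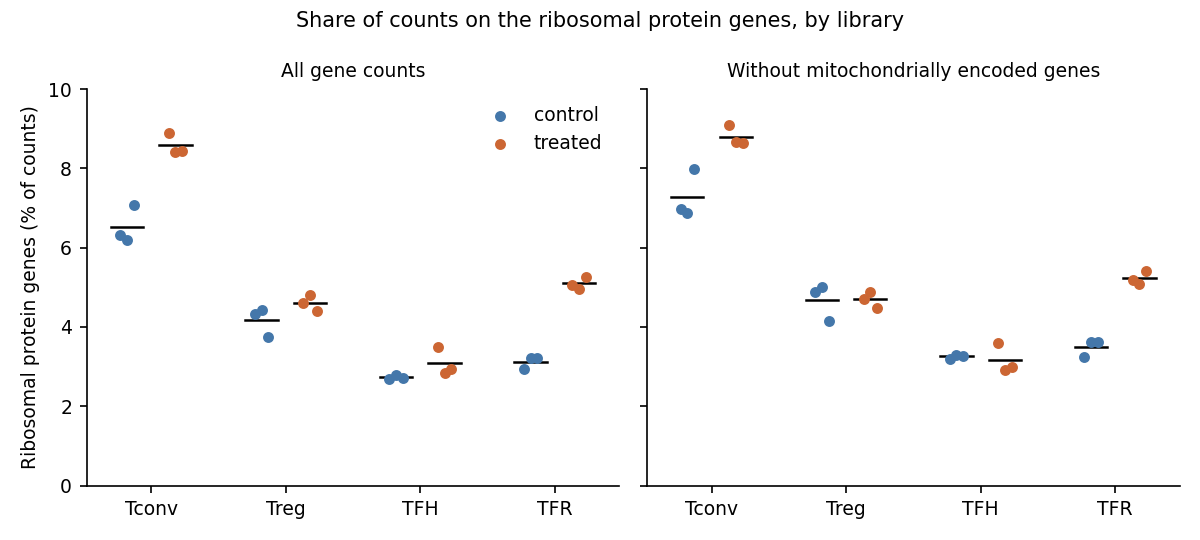
Percent of each library's counts (y axis) assigned to the 85 ribosomal protein genes in the 8 groups (x axis), with 1 point per library and the group mean as a line. Treated Tconv libraries lie at 8.42% to 8.89%, above control Tconv at 6.19% to 7.07%, and treated TFR libraries at 4.96% to 5.26% lie above control TFR at 2.93% to 3.23%.

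The first question the design poses is how treated and control cells differed in each subset. A gene was called when its Benjamini-Hochberg adjusted p in edgeR's quasi-likelihood test was below 0.05. The shares over all genes belong to this main fit. For the alternative fits such shares were not taken, so a changed count may reflect more or fewer calls over all genes. Fold changes compare treated with control and are log2 values ± SE, and levels are CPM, read counts relative to the library's total, scaled by TMM factors (trimmed mean of M values). In Tconv cells 64 of 84 ribosomal protein genes were higher in treated mice and 0 were lower, while 6.89% of all genes tested were higher and 3.05% lower. The members' median was 0.57 (quartiles 0.43 and 0.66), against 0.02 over all genes. The largest called increases were those of Rpl39 and Rpl37, 2 small proteins of the large subunit, with Rpl36a, Rpl3 and Rpl22. Rpl3 lies at the peptidyl transferase centre, and was at 2146, 2017 and 1953 CPM in treated and 1094, 1032 and 1262 CPM in control libraries (0.85 ± 0.09, adjusted p = 5.6e-07). Rpl22 was at 599, 581 and 577 CPM in treated and 322, 310 and 359 CPM in control libraries (0.83 ± 0.09, adjusted p = 1.1e-06). Neither gene's treated and control values overlapped. The 20 genes not called included all 3 stalk genes (Rplp0, Rplp1, Rplp2), Rpl8 and Rps29. Control Tconv libraries 1 and 2 held kidney transcripts, and when the 5 such libraries were left out, which leaves 1 control Tconv library, 9 members were called, all higher, with a median of 0.43. Their part in the difference was otherwise not tested.

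In TFR cells 74 of 84 members were higher in treated mice and 0 were lower, while 15.6% of all genes tested were higher and 6.39% lower. The members' median of 0.75 (quartiles 0.62 and 0.92) stood against 0.40 over all genes. Rpl37 was at 594, 574 and 693 CPM in treated and 200, 282 and 246 CPM in control TFR libraries, with no overlap (1.35 ± 0.11, adjusted p = 2.1e-08). Rpl38, another small protein of the large subunit, was at 351, 316 and 362 CPM in treated against 114, 139 and 174 CPM in control libraries (1.27 ± 0.16, adjusted p = 6.6e-06). Rpl36a, Rpl36 and Rplp2 completed the largest 5, at 1.17, 1.12 and 1.11. The 10 members not called were Rpl15, Rpl22l1, Rpl24, Rpl39l, Rpl3l, Rpl7l1, Rpl9, Rps21, Rps27 and Rps27l, of which 5 are minor paralogs. Without the 5 libraries holding kidney transcripts, 72 members were higher and 0 lower.

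In TFH cells 25 of 84 members were higher in treated mice and 0 were lower, against 16.5% higher and 5.86% lower among all genes tested. The members' median (0.23) lay below that of all genes (0.42). Rps16, a small subunit protein, was at 471, 419 and 467 CPM in treated and 301, 274 and 276 CPM in control libraries, without overlap (0.67 ± 0.10, adjusted p = 3.6e-05). Rplp2, Rpl3, Rpl36a and Rps14 were the other 4 largest calls, at 0.77, 0.63, 0.62 and 0.61. Of the 25, 10 encode large and 15 small subunit proteins. The count was 1 with limma voom, 7 with only the TFH libraries in the fit, and 13 (12 higher, 1 lower) without treated TFH library 1. Without the 5 libraries holding kidney transcripts, among them treated TFH library 3, it was 18, all higher.

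In Treg cells 5 members were higher, Rpl37, Rpl39, Rpl38 and Rpl22 among them, and 7 were lower (Rplp1, Rpl8, Rpl9, Rps14, Rps9, Rplp0 and Rps3, the last named after its values were seen), so 72 of 84 were not called. Of all genes tested, 5.17% were higher and 3.56% lower, and the members' median (0.07) was next to that of all genes (0.09). The members' share of higher genes, 5.95%, was near that over all genes, and their share of lower genes was 8.33%. Rpl8, a large subunit protein near the peptidyl transferase centre, was at 633, 649 and 544 CPM in treated and 988, 998 and 946 CPM in control libraries (-0.68 ± 0.11, adjusted p = 0.00031). Rpl37 went the other way, at 624, 661 and 552 CPM in treated against 356, 375 and 379 CPM in control libraries (0.73 ± 0.11, adjusted p = 0.00012). For both genes the groups did not overlap. The number and balance of the calls changed with the method: 18 higher and 3 lower on library totals alone, 16 and 3 with TMM factors computed without mitochondrial, T cell receptor, immunoglobulin and haemoglobin genes, 8 and 8 with relative log expression factors, 13 and 8 with DESeq2, 26 and 12 with limma voom, and 23 and 20 with only the Treg libraries in the fit. Leaving out any 1 of the 6 Treg libraries gave 6 to 8 calls, the lowest without control Treg library 1 or 2. Rpl37, Rpl22, Rplp1, Rpl8 and Rps14 were called under every alternative tried.

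**Figure D2:**
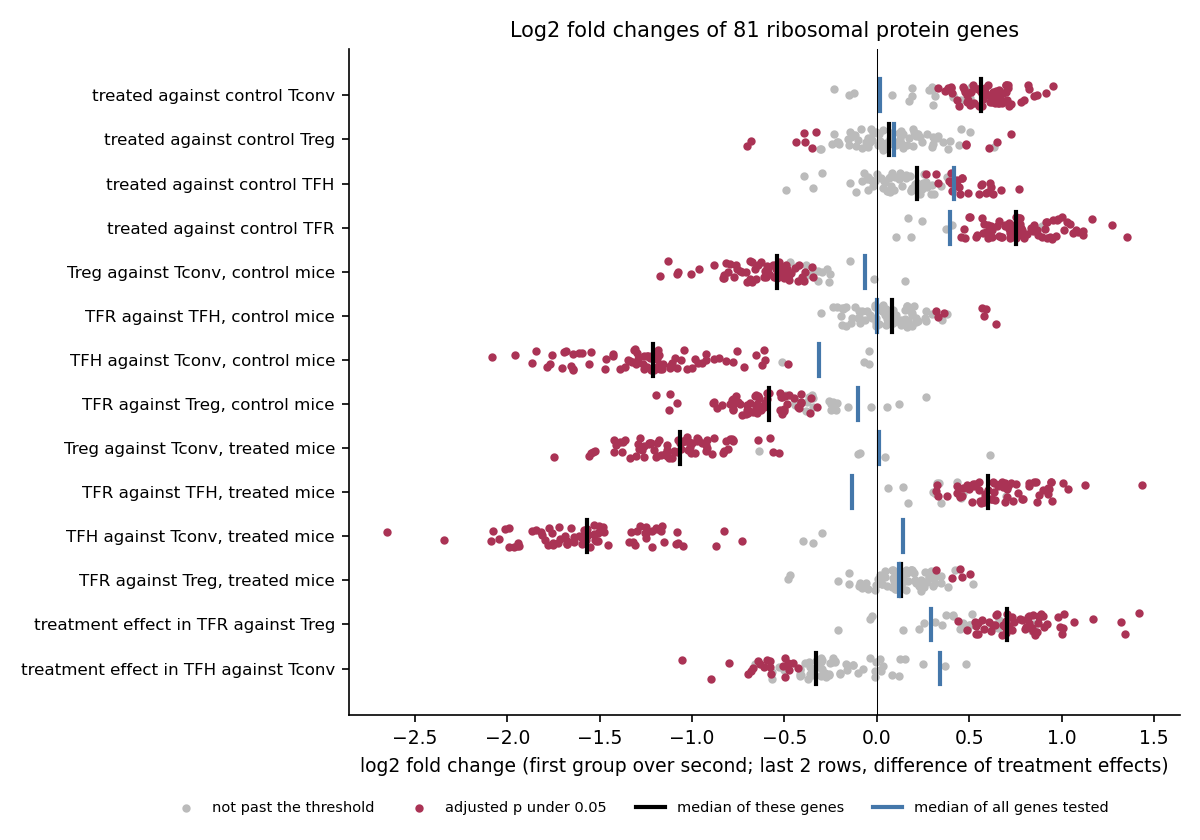
Log2 fold change (x axis) of the 81 members with a mean of at least 10 CPM in the 14 comparisons (y axis), 1 point per gene, coloured where the adjusted p was under 0.05, with the median of these genes in black and that of all genes tested in blue. In treated against control mice nearly all points of Tconv and TFR cells lie above 0, those of Treg cells lie on both sides of 0, and the black line lies left of the blue one in TFH cells.

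The second question is how the subsets differ within 1 treatment. In control mice, Treg cells had 0 members higher and 67 lower than Tconv cells, with 5.9% of all genes tested higher and 3.4% lower. The members' median was -0.54, against -0.06 over all genes. Without the libraries holding kidney transcripts, among them control Tconv 1 and 2, the counts were 0 higher and 61 lower. Rps29, Rps28, Rps27 and Rps27rt of the small subunit were among the largest differences. Rps29 was at 214, 232 and 268 CPM in control Treg and 532, 539 and 538 CPM in control Tconv libraries (-1.17 ± 0.14, adjusted p = 2.0e-06), and the levels were far from overlapping. Rpl3l, a paralog of Rpl3 best known from striated muscle, was also called, but it was at 0 in all 3 control Treg libraries and at 0.358, 0.321 and 1.2 CPM in control Tconv, so no fold is given.

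Control TFH cells had 0 members higher and 77 lower than control Tconv cells, with 9.89% of all genes tested higher and 15.1% lower. The members' median was -1.22, against -0.31 over all genes. Control TFH libraries were shallower than control Tconv ones, and the part of depth in the all-gene median was not tested. The 7 members not called were Rpl13a, Rpl22l1, Rpl24, Rpl39l, Rpl3l, Rpl7l1 and Rps27l. Rpl13a and Rpl24 each overlap another gene on the same strand, so their levels are uncertain. Rplp1, Rps28, Rps16, Rps27 and Rps27rt differed most. Rplp1 was at 579, 597 and 625 CPM in control TFH and 2145, 2130 and 2730 CPM in control Tconv libraries (-1.96 ± 0.10, adjusted p = 3.2e-12). Without the libraries holding kidney transcripts the count stayed at 77. Control TFR cells had 0 members higher and 60 lower than control Treg cells, with 2.28% of all genes tested higher and 7.46% lower. Their median was -0.55, against -0.10 over all genes. Control TFR libraries were also shallower than control Treg ones, and the part of depth was again not tested. Rplp1, Rps27rt, Rplp2, Rps14 and Rpl8 differed most, and limma voom called 13 members, all lower.

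Control TFR and control TFH cells differed in few members: 7 were higher in TFR (Rpl39, Rps26, Rpl35, Rpl22, Rps27a, and, chosen after their values were seen, Rps4x and Rps16) and 1 was lower. Of all genes tested, 7.82% were higher and 8% lower. The members' share of higher genes, 8.33%, was thus near that over all genes, while their share of lower genes was 1.19%. Rps26 was at 355, 349 and 381 CPM in control TFR and 210, 198 and 308 CPM in control TFH libraries (0.59 ± 0.11, adjusted p = 0.0016). The lower gene, Rpl39l, a paralog of Rpl39 known from the testis, had reads in control TFH library 3 alone (2.52 CPM) and none in control TFR. No member was called with limma voom or with only the 2 groups in the fit, and 15 were called on library totals alone (14 higher, 1 lower) and with DESeq2 (13 higher, 2 lower).

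The same comparisons were made in treated mice. Treated Treg cells had 0 members higher and 76 lower than treated Tconv cells, with 6.37% of all genes tested higher and 5.54% lower, and a members' median of -1.06 against 0.01 over all genes. Rps24, a small subunit protein, was at 1202, 1227 and 1128 CPM in treated Treg and 3608, 3467 and 3222 CPM in treated Tconv libraries (-1.53 ± 0.09, adjusted p = 1.1e-10). Rps27rt, Rplp1, Rps27 and Rpl12 were the other 4 largest differences. Treated TFH cells had 0 members higher and 78 lower than treated Tconv cells, with 10.3% of all genes tested higher and 7.77% lower, and a median of -1.56 against 0.14 over all genes. Rpl5, which carries 5S ribosomal RNA into the large subunit and binds Mdm2, was at 733, 663 and 660 CPM in treated TFH and 2906, 2855 and 2704 CPM in treated Tconv libraries (-2.04 ± 0.08, adjusted p = 1.4e-13). Rps27rt, Rps24, Rps27 and Rpl39 differed more, at -2.65, -2.34, -2.09 and -2.08.

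Treated TFR cells had 68 members higher and 0 lower than treated TFH cells, with 4.61% of all genes tested higher and 4.96% lower, and a median of 0.59 against -0.13 over all genes. Rps27l, a paralog of Rps27 induced by p53, differed most. It was at 32.4, 29.7 and 34.3 CPM in treated TFR and 13.8, 6.996 and 14.9 CPM in treated TFH libraries (1.44 ± 0.33, adjusted p = 0.0058), and it lost the call without treated TFH library 2 and without the libraries holding kidney transcripts. Rpl35 was at 320, 330 and 354 CPM in treated TFR and 186, 136 and 137 CPM in treated TFH libraries (1.13 ± 0.15, adjusted p = 3.2e-05). Rpl22, Rpl32 and Rpl14 followed at 1.03, 1.01 and 0.95. Treated TFR and treated Treg cells differed in 5 members, Rps2, Rpl8, Rpl7a, Rplp0 and Rpl6, all higher in TFR, and 0 were lower, with 1.78% of all genes tested higher and 2.83% lower. Rps2 was at 534, 581 and 619 CPM in treated TFR and 420, 426 and 379 CPM in treated Treg libraries (0.50 ± 0.10, adjusted p = 0.0029). That last count ranged from 1 when treated Treg library 3 or treated TFR library 3 was left out to 52 (47 higher, 5 lower) with limma voom.

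Over the 14 comparisons there were 12 directions in which 0 members passed. At an unadjusted p below 0.05, edgeR's quasi-likelihood test put at most 2 members in any of them. DESeq2 called at most 3 members and limma voom at most 5 in any of these directions.

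**Figure D3:**
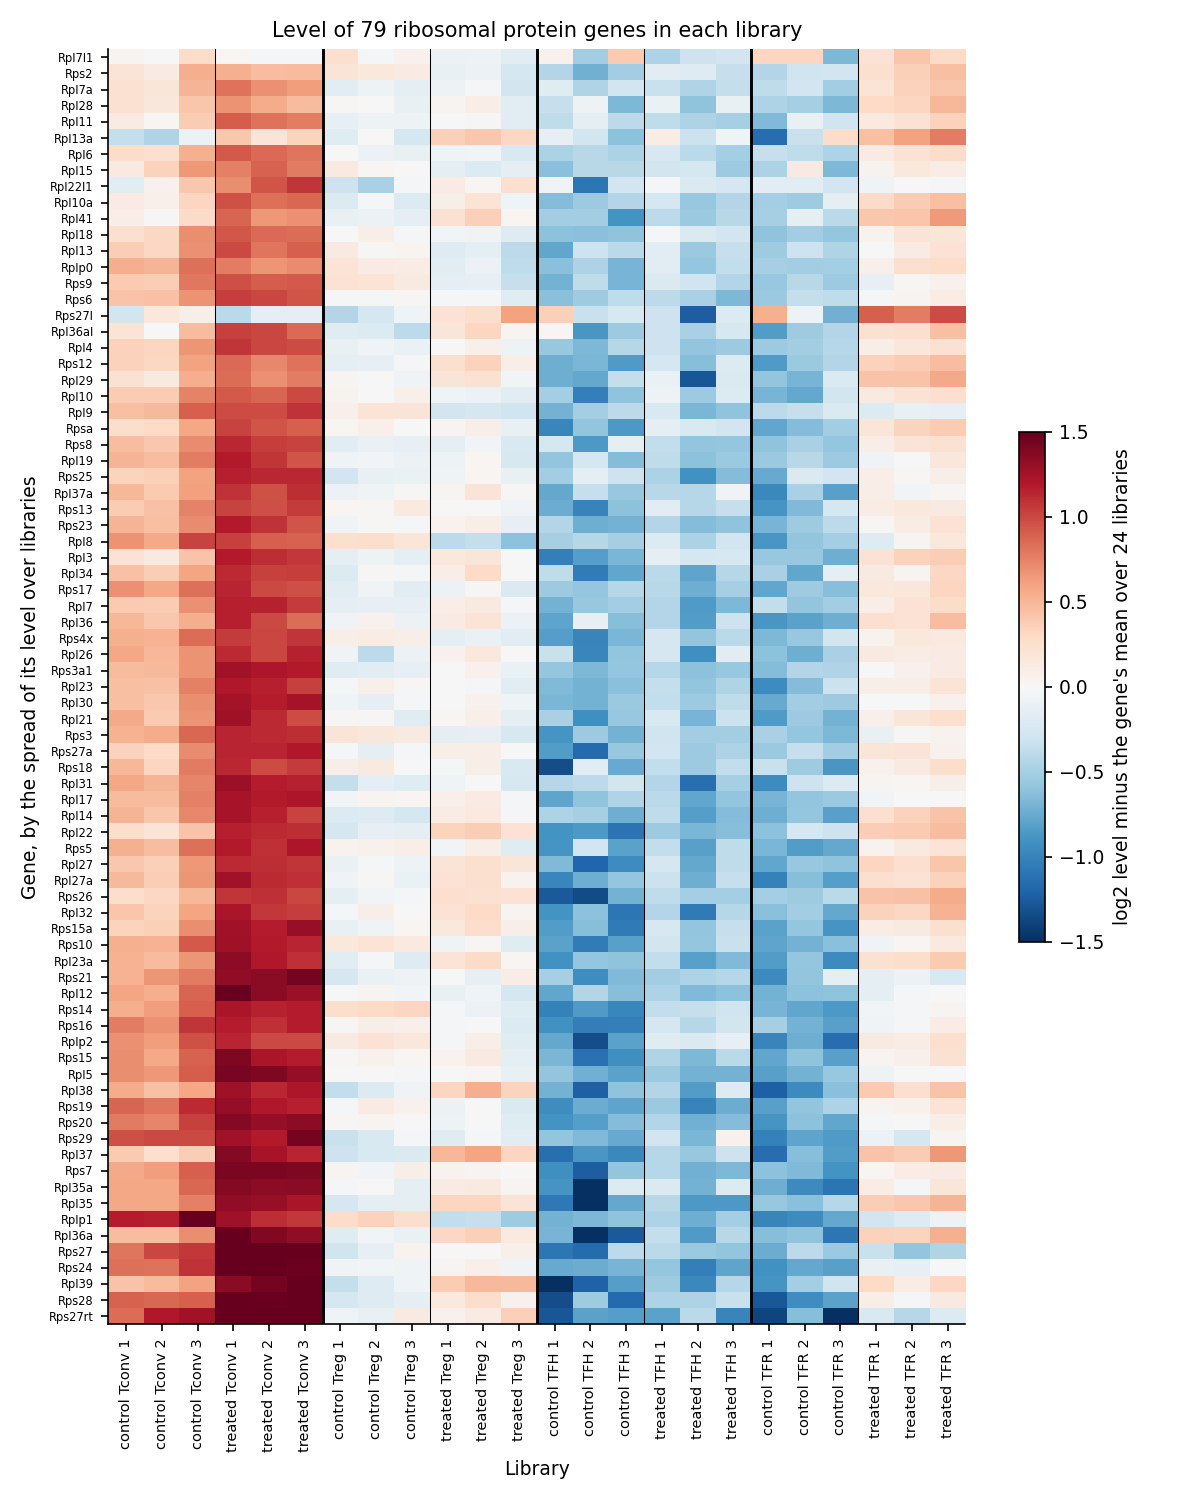
Level of 79 members with a mean of at least 10 CPM (rows) in the 24 libraries (columns), as log2 CPM less the gene's mean over the libraries, and colours are capped at 1.5 above and below. The median over all 81 such members runs from 1.06 to 1.17 in treated Tconv libraries to -0.71 to -0.63 in control TFH libraries.

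Whether the difference between treated and control cells varied between subsets was tested with the interaction of treatment and subset. The treatment difference was larger in TFR than in Treg cells for 58 of 84 members and smaller for 0, while 5.24% of all genes tested were larger and 2.26% smaller. The members' median interaction was 0.70 on the log2 scale, against 0.29 over all genes, and 33 of the 58 encode large and 25 small subunit proteins. The count was 37 on library totals alone and 32 with limma voom, all in the same direction, and 45 without the libraries holding kidney transcripts. The treatment difference was smaller in TFH than in Tconv cells for 21 members and larger for 0, while 5.22% of all genes tested were smaller and 14.4% larger. The median was -0.32 against 0.34 over all genes. The shallow control TFR and TFH libraries enter the all-gene medians of both interactions, and the part of depth in them was not tested. With TMM factors computed without mitochondrial, T cell receptor, immunoglobulin and haemoglobin genes, 18 members were smaller and 3 larger, and on library totals alone 16 and 2. The count was 8 with limma voom, all smaller, and 13 with only the compared libraries in the fit (12 smaller, 1 larger). None was called without the libraries holding kidney transcripts, which leaves 1 control Tconv library.

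The stalk proteins form the flexible arm of the large subunit that recruits elongation factors. Rplp0 (chr5:115559467-115563727) anchors the arm, and Rplp1 (chr9:61913284-61914542) and Rplp2 (chr7:141447370-141451585) bind to it in pairs. Over all libraries Rplp1 and Rplp2 had the highest levels per length of the family, at 2230 and 1659 CPM per kb of main coding transcript, ahead of Rps15 (1633) and Rps12 (1608). In Treg cells Rplp1 was at 736, 748 and 658 CPM in treated and 1153, 1201 and 1135 CPM in control libraries (-0.70 ± 0.10, adjusted p = 3.3e-05). In TFR cells it was at 779, 826 and 901 CPM in treated and 476, 494 and 555 CPM in control libraries (0.72 ± 0.10, adjusted p = 1.7e-05). The groups did not overlap in either subset, and the directions were opposite. Limma voom did not call Rplp1 in TFR cells (0.77). The interaction of the treatment difference in TFR with that in Treg cells was 1.42 ± 0.14 (adjusted p = 3.2e-06).

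Rplp0 followed the same pattern in these subsets. It was at 1044, 1094 and 896 CPM in treated and 1343, 1272 and 1254 CPM in control Treg libraries (-0.35 ± 0.10, adjusted p = 0.033), and at 1226, 1391 and 1409 CPM in treated and 821, 810 and 818 CPM in control TFR libraries (0.72 ± 0.10, adjusted p = 2.7e-05). The Treg difference of Rplp0 lost its call under several alternatives. Rplp2 in Treg cells was at 622, 666 and 551 CPM in treated and 689, 728 and 704 CPM in control libraries, which did not pass the test (-0.21 ± 0.12, adjusted p = 0.41). In Tconv cells none of the 3 was called, with differences of 0.08 ± 0.10, -0.15 ± 0.10 and 0.28 ± 0.12 for Rplp0, Rplp1 and Rplp2, whereas the median of the family there was 0.57. Rplp1 was called lower in treated Tconv cells with DESeq2 (-0.25) and with only the Tconv libraries in the fit (-0.30).

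**Figure D4:**
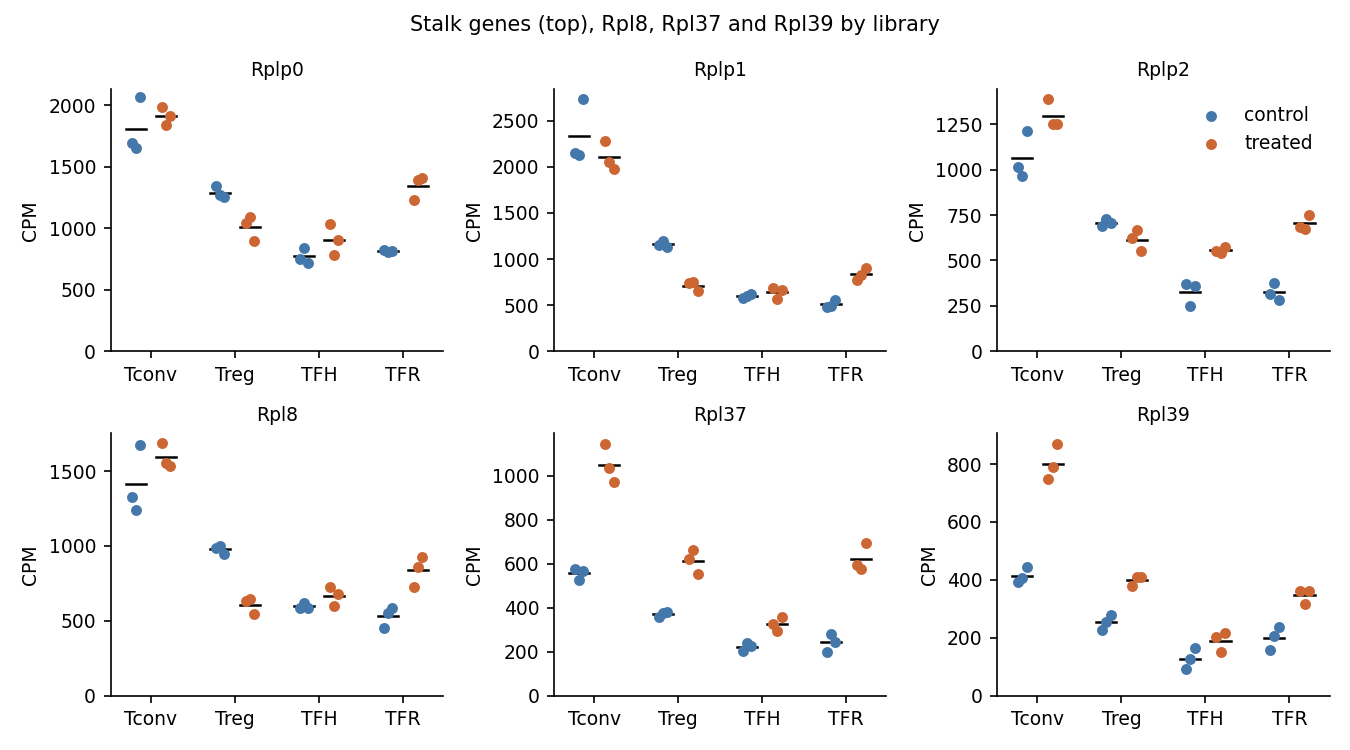
Level in CPM (y axis) of Rplp0, Rplp1, Rplp2, Rpl8, Rpl37 and Rpl39 in the 8 groups (x axis), 1 panel per gene and 1 point per library, with the group mean as a line. Rplp1 and Rpl8 are lower in treated than in control Treg libraries, while the means of Rpl37 and Rpl39 are higher in treated than in control mice in each subset.

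Rpl37 (chr15:5116645-5119140), a zinc-binding protein of the large subunit, and Rpl39 (chrX:37082520-37085402), which lines the exit tunnel, were called higher in treated mice in all 4 subsets, as was Rpl22 (chr4:152325742-152334071), which is needed for T cell development. For Rpl37 the differences were 0.92, 0.73, 0.55 and 1.35 in Tconv, Treg, TFH and TFR cells. For Rpl39 they were 0.95, 0.65, 0.57 and 0.79, and for Rpl22 0.83, 0.48, 0.33 and 0.80. Rpl39 in Tconv cells was not called without the libraries holding kidney transcripts. The Treg calls of Rpl39 and Rpl38 were also lost under 2 and 3 alternatives, and the TFH calls of Rpl39 and Rpl22 under 6 and 5.

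On the small subunit, Rpsa (chr9:120127689-120132369), also known as the laminin receptor, and Rps6 (chr4:86854660-86857412), the substrate of the S6 kinases, showed different patterns. Rpsa was at 1784, 1976 and 2047 CPM in treated and 915, 1001 and 1092 CPM in control TFR libraries (0.95 ± 0.10, adjusted p = 4.8e-07). It was also higher in treated Tconv (0.57 ± 0.10) and TFH cells (0.59 ± 0.10), and in Treg cells the difference was -0.03 ± 0.10 (adjusted p = 0.94). Rps6 was higher in treated Tconv and TFR cells, at 0.48 ± 0.09 in each. In TFH cells it was at 480, 450 and 393 CPM in treated and 405, 433 and 482 CPM in control libraries, which overlapped (0.00 ± 0.09, adjusted p = 1.0). Rps14, an assembly protein of the small subunit platform, was lower in treated Treg cells (-0.39 ± 0.08, adjusted p = 0.0020) and higher in treated Tconv, TFH and TFR cells, at 0.49, 0.61 and 0.77.

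Some ribosomal proteins have a less abundant paralog, and the balance of each pair was set out per library. Rpl7l1 was at 57.7 to 60 CPM in treated and 59 to 71.2 CPM in control Tconv libraries and was not called in any treatment comparison. Its level was 2.52 ± 0.0930 per 100 of Rpl7 (SD, n = 3) in treated Tconv and 8.55 ± 2.51 in control TFH cells, the lowest and the highest group means. Rpl22l1 per 100 of Rpl22 ranged from 24.2 ± 0.796 in treated TFR to 48.1 ± 17.6 in control TFH cells, where a single library lay at 27.7. Rpl36al per 100 of Rpl36a was lowest in treated Tconv (26.4 ± 0.940) and highest in control TFH cells (59.96 ± 1.48). Rps27l per 100 of Rps27 was 1.23 ± 0.0814 in treated Tconv and 11.1 ± 0.810 in treated TFR cells. These ratios were not tested.

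The remaining paralogs were scarce. Rpl3l had 122 and Rpl39l 243 reads over all 24 libraries, and each was at 0 in all 3 control TFR libraries. Rpl24 is not 1 of the paralogs. It had 3038 reads and overlaps a transcript on the same strand, so its level is uncertain. Rpl13a, also not 1 of the paralogs, had 29233 reads and overlaps the protein-coding gene Gm45713 on the same strand over 621 bases, so its level is uncertain too. Rps27rt per 100 of Rps27 was between 9.63 ± 2.53 in control TFR and 18.8 ± 2.79 in treated Tconv cells, a pair added after the data were seen.

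**Figure D5:**
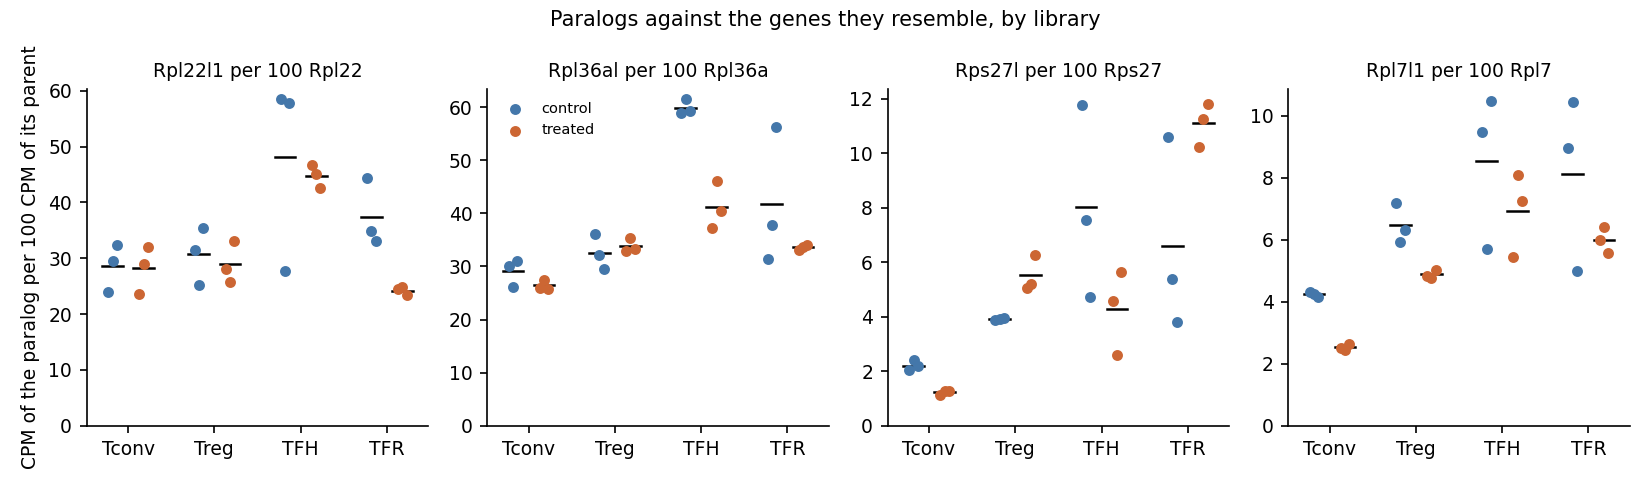
Level of a minor paralog per 100 of the gene it resembles (y axis) in the 8 groups (x axis), 1 panel per pair and 1 point per library, with the group mean as a line. Rpl7l1 per 100 of Rpl7 is lowest in treated Tconv libraries, and the mean of Rps27l per 100 of Rps27 is highest in treated TFR cells.

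Other parts of the translation machinery were counted over lists of genes chosen with earlier results of these data known. The counts below stand beside shares over all genes of 6.89% higher and 3.05% lower in treated Tconv, 5.17% and 3.56% in Treg, 16.5% and 5.86% in TFH, and 15.6% and 6.39% in TFR cells. The medians over all genes were 0.02, 0.09, 0.42 and 0.40 in the same order. In TFH and TFR cells the control libraries were shallower than the treated ones, and the part of depth in these medians was not tested. Of 3 ribosome components outside the symbol rule, Fau and Rack1 were higher in treated Tconv, TFH and TFR cells and neither was called in Treg. In TFR cells Rack1, a scaffold on the small subunit, rose by 0.71 (adjusted p = 1.7e-05) and Fau, which yields Rps30, by 0.51 (adjusted p = 0.00097). Of 8 elongation factor genes, 5 were higher in treated Tconv, 3 in TFH and 7 in TFR cells, with none lower, and in Treg cells 2 were lower and none higher. Those 2 were Eef2, the translocation factor (-0.46, adjusted p = 0.0021), and Tpt1 (-0.34, adjusted p = 0.033). The list's medians were 0.44, -0.04, 0.13 and 0.75 in Tconv, Treg, TFH and TFR cells, above the median over all genes in Tconv and TFR and below it in Treg and TFH cells.

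Among 48 ribosome biogenesis genes, 25 were higher and none lower in treated TFR cells, with a median of 0.68 against 0.40 over all genes. In Tconv cells 8 were higher and none lower, in Treg 7 and 1, and in TFH 4 and 4. In TFH cells the share of higher genes was thus below that over all genes, and the list's median of -0.04 lay below 0.42. Npm1 and Ncl, abundant nucleolar proteins, rose in TFR cells by 1.36 (adjusted p = 9.5e-09) and 1.09 (adjusted p = 2.4e-08). Of 36 initiation factor genes, 17 were higher and 1 lower in TFR cells, 9 and 3 in Tconv, 6 and 3 in TFH, and 2 and 2 in Treg. The shares of higher genes in TFH and Treg cells were near those over all genes. Eif4a1, the RNA helicase of the cap-binding complex, was higher in all 4 subsets, at 0.58, 0.40, 0.48 and 1.32 in Tconv, Treg, TFH and TFR cells. Of 14 genes of RNA polymerase I and its factors, 2 were higher in Tconv, 2 in Treg, 3 in TFH and 3 in TFR cells, and 1 was lower, in TFH. With so few genes, 3 of 14 stands near the 16.5% and 15.6% of all genes. Among 20 genes of mTORC1 and the Myc network, 1 was higher and none lower in Tconv, none higher and 4 lower in Treg, 5 higher and 1 lower in TFH, and 4 higher and 2 lower in TFR cells. In TFH and TFR cells the list's medians of 0.16 and 0.13 lay below those over all genes. Myc, which drives ribosome production, was higher in treated Tconv (0.80, adjusted p = 0.00033), TFH (0.82, adjusted p = 0.00029) and TFR cells (0.87, adjusted p = 0.00011), and in Treg cells it differed by 0.18 (adjusted p = 0.55). Of 12 noncoding snoRNA host genes, 10 were tested, of which 4 were higher and none lower in Tconv, 3 and none in Treg, 3 and 1 in TFH, and 4 and none in TFR cells. Gas5, one of them, whose transcript also begins with a pyrimidine tract, was higher in treated Tconv (0.79, adjusted p = 1.6e-06) and Treg cells (0.42, adjusted p = 0.0032), and its differences in TFH (0.09) and TFR cells (0.20) did not pass.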

How the data were processed

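Total RNA from sorted T cells was converted to ribosomal RNA-depleted libraries (CORALL with RiboCop, per the labels' protocols). The authors deposited a table of read counts per gene; STAR, featureCounts and the mm10 build are named in the submitters' processing notes, and for versions, annotation release, strand setting and reads with several matches the entry is: not given in the sources used here. Gene symbols came from GENCODE M21 (38872 IDs matched, 184 did not). Counts were tested in R 4.3.3 with edgeR 4.0.16: low counts filtered by group, TMM factors, 1 quasi-likelihood model of 8 group means over 24 libraries, 14 contrasts, two-sided, Benjamini-Hochberg over 18789 genes, threshold 0.05; the common biological coefficient of variation was 0.617. SE is the absolute log2 fold change divided by the square root of F. Alternatives used other factors, no filter, limma 3.58.1 voom with quality weights, DESeq2 1.42.0, a replicate block, pseudogene rows added, only the compared libraries, and libraries left out. The tests were run on simulated data for treated against control Tconv and TFR cells alone. The simulation had no kidney transcripts confined to single libraries and no mitochondrial shift between groups, so it does not bear on those.

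Named members are the 5 largest called changes per direction and comparison, the paralog pairs, the stalk genes, Rpsa and Rps6, and of other lists up to 4 genes with the smallest p. The members and lists were chosen with earlier results of these data known. The 10 CPM minimum, the tract definition, the split by shared sequence and the pair of Rps27 with Rps27rt were chosen after the data were seen. Pairs of libraries of 1 group differed by more than sampling noise, the lowest chi-square per degree of freedom being 4.52, and each was kept as its own library. The highest values, 268 and 287, were those of control Treg library 3 against control Treg libraries 1 and 2. Control Treg library 3 also had the lowest TMM factor (0.863) and is not among the 5 libraries with kidney transcripts. All sample columns were used. Promoter windows of members on 1 chromosome were not analysed here. The values of some single members are not reported here.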

Additional observations from a re-analysis of the deposited data

Results flagged for a closer look

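The difference between treated and control cells was not equal between subsets for 58 members in TFR against Treg cells. The interaction test was that of edgeR's quasi-likelihood model with Benjamini-Hochberg adjustment. Among the paralog pairs, the stalk genes, Rpsa and Rps6, the members called were the stalk genes Rplp1 (interaction 1.42 on the log2 scale), Rplp2 (1.32) and Rplp0 (1.07), the small subunit genes Rpsa (0.979), Rps4x (0.848) and Rps6 (0.537), and the large subunit genes Rpl10 (0.92), Rpl36a (0.784), Rpl3 (0.698) and Rpl7 (0.49). In each of them the treated against control difference was more positive in TFR than in Treg cells. For 21 members the treatment difference was less positive in TFH than in Tconv cells. Among the same pairs and single genes, those called were Rpl7 (-0.679), Rpl22 (-0.495) and Rps6 (-0.474). Control Tconv libraries 1 and 2, which hold kidney transcripts, enter that second test.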

How the results depend on the processing

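Under the 10 alternatives that keep all libraries or leave out the libraries with kidney transcripts, the majority direction of the calls, where there were any, held in every comparison except treated against control Treg cells, where 12 calls (5 higher, 7 lower) became 21 on library totals alone (18 higher), 19 with TMM factors computed without mitochondrial, receptor, immunoglobulin and haemoglobin genes (16 higher), 38 with voom (26 higher), 21 with DESeq2 (13 higher), 43 with only the compared libraries (23 higher) and 9 without the libraries holding kidney transcripts (6 higher). The cause was not tested. For none of the alternatives was the share of all genes called taken, so the counts here do not separate the family from all genes. Library totals alone gave 15 members in control TFR against TFH cells and 37 in the interaction of TFR with Treg cells. Voom gave 1 member in treated against control TFH, 0 in control TFR against TFH, 13 in control TFR against Treg, 52 in treated TFR against Treg, 32 in the interaction of TFR with Treg and 8 in that of TFH with Tconv cells. DESeq2 gave 15 in control TFR against TFH and 17 in treated TFR against Treg. With only the compared libraries, which have fewer samples, the counts were 7 in treated against control TFH, 0 in control TFR against TFH, 26 in treated TFR against Treg and 13 in the interaction of TFH with Tconv. Without the libraries holding kidney transcripts they were 9 in treated against control Tconv, 3 in treated TFR against Treg and 0 in the interaction of TFH with Tconv, with a single control Tconv library left, assumed to vary like the others.

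Leaving out 1 library at a time gave, for treated against control, 47 to 69 members in Tconv, 6 to 8 in Treg, 13 to 30 in TFH and 72 to 75 in TFR. In control mice it gave 53 to 66 for Treg against Tconv, 4 to 11 for TFR against TFH, 77 to 78 for TFH against Tconv and 53 to 60 for TFR against Treg. In treated mice it gave 76 in each fit for Treg against Tconv, 55 to 67 for TFR against TFH, 78 in each fit for TFH against Tconv and 1 to 5 for TFR against Treg. The interactions gave 48 to 59 for TFR with Treg and 16 to 30 for TFH with Tconv. The Treg split turned to 4 higher and 3 lower without treated Treg 1, with 7 calls, to 5 and 3 without treated Treg 3, with 8, and to 4 and 3 without control Treg 3, with 7. It fell to 6 calls without control Treg 1 or 2. The lowest TFH count came without treated TFH 1 and the lowest control TFR against TFH count without control TFR 3. In treated TFR against Treg the count was 2 without treated Treg 1 or treated TFR 2.

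With mitochondrial genes out of the denominator the members' share in control cells was 7.28% for Tconv, 4.68% for Treg, 3.50% for TFR and 3.26% for TFH. With pseudogene rows added it was 8.87% in treated Tconv, 5.27% in treated TFR and 2.83% in control TFH cells. Among the values of single named genes, 4715 kept direction and side of the threshold, 116 passed it newly, 241 lost it and 1 reversed: Rpl39l in control TFR against TFH cells ranged from a fitted -8.385 (no bound, since control TFR held no reads) without control TFH 1 to 0 without control TFH 3, the library that held its reads. On library totals alone the median of all genes moved from 0.02 to -0.11 in treated against control Tconv and from 0.09 to 0.24 in Treg cells, where the members' median was 0.22.

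Replicate numbers were shared by all groups. The block on replicate number called 65 members in treated against control Tconv (64 without it), 11 in Treg, 24 in TFH and 75 in TFR cells, and it changed no other count by over 1.5 times. Same-numbered libraries did not deviate together in all pairs of any of 12 comparisons (correlations of -0.786 to 0.675), so the numbers are not taken to pair the samples. The shallow control TFH libraries limit what can be said of the scarce paralogs Rpl3l and Rpl39l.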
